A study of Mus musculus with 6 samples.

Results

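The 10 genes described here are Ostn, which encodes the secreted muscle peptide musclin, the natriuretic peptide receptors Npr1, Npr2 and Npr3, and 6 genes for other factors that muscle releases: Fndc5, Il15, Metrnl, Apln, Vegfb and Bdnf. They were picked by symbol to ask whether the higher expression of Ostn with BML-260 in these same libraries was shared by its receptors or by other myokines. All 10 were listed among the 16800 genes of the TPM tables, and all 10 were among the 16188 genes that passed the filter on low counts. Because Ostn was chosen for its difference between the groups, the differences of the 10 genes are given as a description, without a test of their own.

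The libraries were made from total RNA of the tibialis anterior (TA), a fast-twitch muscle of the lower leg, in male C57BL/6J mice labelled as 24 months old, the lower end of the ages in the study's methods. In the vehicle group 3 mice were injected with DMSO and Tween 80 alone, and in the BML-260 group 3 mice received BML-260, a small molecule inhibitor of the phosphatase DUSP22, at 5 mg/kg in the same vehicle, daily for 4 weeks by intraperitoneal injection. The 3 libraries of a group were taken as 3 mice, as the study's methods give n = 3 per group. Whole muscle was used, so the RNA of fibers, vessels, nerve, fat and blood cells was read together. Fewer cells of a type and less RNA per cell can therefore not be told apart.

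Musclin is a peptide released by skeletal muscle during activity that resembles the natriuretic peptides. These peptides, ANP (Nppa), BNP (Nppb) and CNP (Nppc), act through receptors that make cyclic GMP, Npr1 for ANP and BNP and Npr2 for CNP. Npr3 lacks the cyclase and takes the peptides up for degradation. Musclin binds to Npr3, and in doing so can leave more natriuretic peptide for Npr1 and Npr2.

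The part of Ostn that resembles these peptides is shown first, because it is the basis on which the receptors are set beside the ligand. In natriuretic peptides the receptor is met by a ring, and the ring carries a conserved run that begins with phenylalanine and glycine and holds aspartate and arginine further on. The translated coding sequences of Ostn, Nppb and Nppc (GENCODE M21, GRCm38, the same assembly as mm10) were searched for that run. The pattern was set to take in the peptides and both Ostn stretches. Its matches, once in each peptide gene and at 2 places in Ostn, therefore only locate the stretches. The 27 coding bases of each are given 5′ to 3′ on the coding strand, with capitals at the 15 positions where the second Ostn stretch and both peptides carry the same base, and in the first Ostn stretch where it shares that base.
Ostn first stretch: TTTGGgtctccccTtGAcaGacTctca
Ostn second stretch: TTTGGtattcccaTgGAtCGGATtGGt
Nppb: TTTGGgcacaagaTaGAcCGGATcGGa
Nppc: TTTGGcctcaagcTgGAcCGGATcGGc
The first Ostn stretch lies at chr16:27324673-27324699 on the plus strand, in exon 3 of 5 of the transcript Ostn-201, and begins at codon 84 of 130. The second lies at chr16:27346899-27346925 in exon 4 and begins at codon 113. It shared 17 of 27 bases (63.0%) with Nppc (chr1:86669688-86669714, minus strand), and 16 of 27 (59.3%) with Nppb (chr4:147986467-147986493, plus strand). When translated, 6 of the 9 residues of the second stretch were the same as in each of these peptides, and 5 of 9 the same as in the first Ostn stretch. The pattern itself required the phenylalanine, glycine, aspartate and arginine. These residues, and part of the shared bases, were thus the same by the choice of pattern, and the shares are a description.

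Library totals were 39793301 to 52165766 counts with vehicle and 39522890 to 56998875 with BML-260. Fiber markers such as Acta1 and Ckm were abundant in every library, with a summed TPM of 6 genes between 68568 and 77174 with vehicle and between 70253 and 89368 with BML-260. TPM is scaled for transcript length and library total, so that it allows levels of different genes to be compared. Vehicle replicate 3 stood apart. Its summed TPM of 4 adipocyte markers was 189, against 8.41 to 11.6 in the other libraries, that of 5 macrophage markers was 90.3 against 19.0 to 30.1, and that of 4 Schwann cell markers was 57.7 against 9.33 to 18.1. For 4 neutrophil markers the sum ranged from 24.0 to 807 with vehicle and from 6.90 to 12.4 with BML-260, and for 6 markers of denervated fibers from 32.0 to 106 and from 17.7 to 24.3. The neutrophil and denervated fiber sums of vehicle replicates 1 and 2 were also above those of every BML-260 library. For the Schwann cell markers the sums of vehicle replicates 1 and 2, 10.7 and 9.33, were below the 15.4 to 18.1 with BML-260. The median log2 fold change of these 4 markers turned from -0.41 to 0.58 without vehicle replicate 3. The macrophage sums overlapped between the groups. In counts scaled by library, however, 4 of the 5 macrophage markers were lower in every BML-260 library than in every vehicle library, beside 6.7% of all tested genes. Without vehicle replicate 3 the median log2 fold change of the 5 was still -0.57. The part of these and the other cell types in the results below was not tested, and values without vehicle replicate 3 are given.

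Ostn had the largest difference of the 10 genes. Its normalized counts, which are counts divided by the DESeq2 size factor of the library, were 618, 305 and 452 in vehicle replicates 1, 2 and 3, and 1159, 1109 and 760.1 in BML-260 replicates 1, 2 and 3. Every BML-260 library was thus above every vehicle library, with vehicle replicate 2 the lowest of all. The vehicle mean was 458 ± 156 (SD, n = 3) and the BML-260 mean 1009 ± 217 (SD, n = 3), at a ratio of 2.20. The log2 fold change of BML-260 over vehicle fitted with edgeR (log2FC) was 1.13, with a standard error (SE) of 0.27. In TPM the libraries held 17.2, 8.09 and 17.4 with vehicle and 29.4, 31.7 and 21.7 with BML-260, again without overlap. The log2FC was higher than that of 99.5% of all tested genes. Without vehicle replicate 3 the log2FC was 1.11, in a comparison where the neutrophil and denervated fiber sums still differed between the groups. Macrophage markers were still lower with BML-260 there, at a median log2FC of -0.57, and Schwann cell markers were higher, at 0.58. Over all fits that left out 1 library, the log2FC of Ostn lay between 0.92 and 1.41. The gene spans chr16:27307641-27351209 (GRCm38.p6), where 2 other listed genes overlap it, Gm32312 with at most 6 counts and Gm15970 with at most 1 count in a library, beside 240 to 1341 counts for Ostn.

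**Figure D1:**
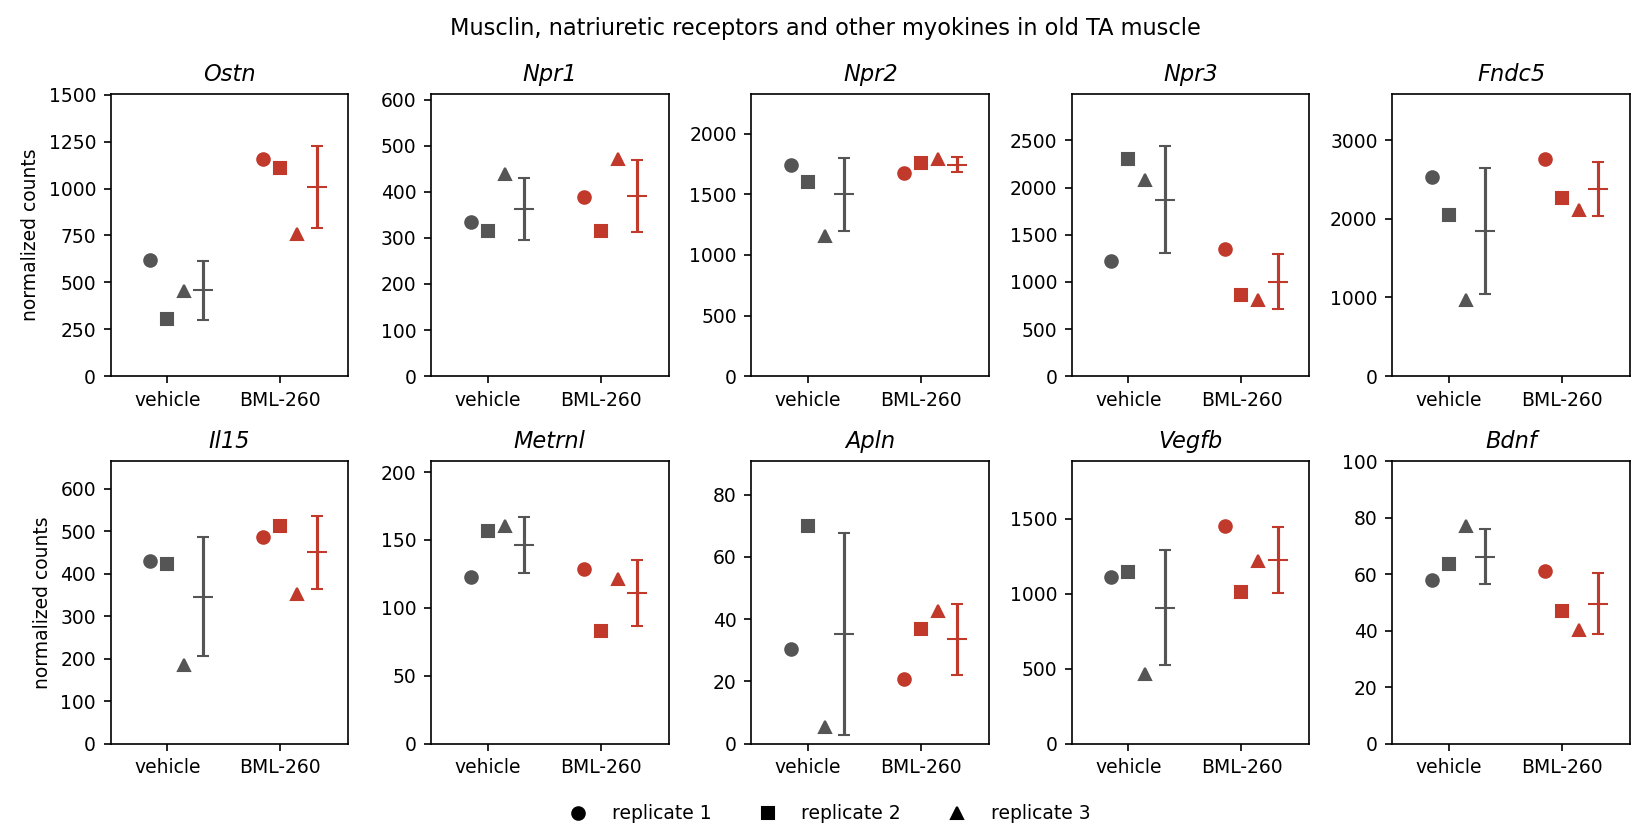
Normalized counts of the 10 genes in each library, with vehicle in grey and BML-260 in red; the marker shape gives the replicate and the bar the mean with its SD (n = 3). In Ostn the 3 BML-260 libraries, at 760.1 to 1159, lie above the 3 vehicle libraries, at 305 to 618, and in the other 9 genes the groups overlap.

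A threshold used here, a change of 1.3-fold or more and an unadjusted p (here from edgeR) under 0.05, was passed by 2 of the 10 genes, Ostn as higher and Npr3 as lower. Of all 16188 tested genes 5.75% passed, 0.896% as higher and 4.86% as lower, and since these genes were taken up with this contrast known nothing is read from the comparison. In normalized counts 1 of the 10 genes, Ostn, had no overlap between groups, as did 12.1% of all tested genes (5.43% with BML-260 higher and 6.7% with it lower). After Benjamini-Hochberg adjustment over all tested genes, edgeR's quasi-likelihood test gave 0 of the 10 genes an adjusted p under 0.05 (0.0% of all genes), beside 2 with an unadjusted p under 0.05 (5.97% of all genes). DESeq2's Wald test gave an adjusted p under 0.05 to 1, Ostn (0.449% of the genes it adjusted over). With edgeR's quasi-likelihood test the adjusted p of Ostn was 0.607. As Ostn was chosen for its difference, neither value is read as a test of it. Leaving Ostn aside, 5 genes were higher with BML-260 and 4 were lower by the sign of the log2FC, where 49.5% of all tested genes were higher. The signs of Npr1 and Apln turned between fits, as given below. The median log2FC of all 10 was 0.16, against -0.0039 over all tested genes. Without vehicle replicate 3 that median was 0.052. None of the other 9 genes had a log2FC above 0.43.

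The receptor genes lie on 3 chromosomes (GRCm38.p6), Npr1 at chr3:90450591-90465928, Npr2 at chr4:43629015-43651437 and Npr3 at chr15:11839896-11907837. Npr2 overlaps Spag8, which had at most 4 counts in a library, and Npr3 overlaps Gm5144, which had at most 16. Among the other myokines, Fndc5 lies at chr4:129136870-129144593, Il15 at chr8:82331624-82403252, Metrnl at chr11:121702427-121717389, Apln at chrX:48025146-48034853, Vegfb at chr19:6982472-6987651 and Bdnf at chr2:109674700-109727043.

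Npr3, the clearance receptor to which musclin binds, differed in the direction opposite to Ostn. Its normalized counts were 1226, 2306 and 2082 with vehicle and 1345, 858 and 809 with BML-260. Vehicle replicates 2 and 3 were above all other libraries, whereas vehicle replicate 1 lay below BML-260 replicate 1, so that the groups overlapped. The vehicle mean was 1871 ± 570 (SD, n = 3) and the BML-260 mean 1004 ± 296 (SD, n = 3), and the log2FC was -0.90 with an SE of 0.28. It was -0.82 without vehicle replicate 3 and ranged from -1.17 to -0.72 over the fits that left out 1 library. Without BML-260 replicate 3 Npr3 no longer passed the threshold (log2FC -0.77). In TPM the values were 6.65, 11.7 and 15.6 with vehicle and 6.54, 4.58 and 4.33 with BML-260, where the groups were separated only by the gap between 6.54 and 6.65. Fat and vessel cells are known to carry Npr3. The summed TPM of 5 endothelial markers was 53.4 to 85.3 with vehicle and 47.6 to 64.9 with BML-260, and that of the adipocyte markers was highest, at 189, in vehicle replicate 3, which also had the highest Npr3 in TPM. In normalized counts Npr3 was highest in vehicle replicate 2, where the adipocyte sum was 11.3 TPM. The part of these cells in the difference of Npr3 was not tested.

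The receptors with a cyclase domain showed smaller differences. Npr1, the receptor of ANP and BNP, had normalized counts of 335, 314 and 439 with vehicle and 388, 315 and 472 with BML-260. Both groups had 1 high library, replicate 3 in each, and they overlapped over nearly their whole range. The log2FC was 0.11 with an SE of 0.21. On log2 TPM its sign was turned (-0.021 with a pseudocount of 1), and it was also turned without BML-260 replicate 3 (-0.050), so no direction is given for Npr1.

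Npr2, the receptor of CNP, had normalized counts of 1740, 1597 and 1159 with vehicle and 1675, 1761 and 1793 with BML-260. In normalized counts the BML-260 libraries lay close together, and the lowest value was that of vehicle replicate 3. Its log2FC of 0.21 (SE 0.17) was 0.056 without that library. The 2 scales did not place this library alike, since in TPM vehicle replicate 3 had the highest Npr2 of the vehicle group, 13.0 against 10.9 and 11.04. Its TMM factor, by which edgeR scales for RNA composition, was 1.20, the highest of the 6 libraries. The BML-260 libraries did not lie close together in TPM, with 10.2, 14.8 and 14.6, and BML-260 replicate 1 was the lowest of the 6 libraries.

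Within a library, levels per transcript length show how the RNA of the ligand and of the receptors stood to each other. Protein was not measured in these libraries. Ostn over Npr3 in TPM was 2.59, 0.690 and 1.12 in the vehicle libraries and 4.49, 6.93 and 5.01 in the BML-260 libraries. Thus the RNA of Npr3 exceeded that of Ostn in vehicle replicate 2 alone, and the RNA of Ostn exceeded that of Npr3 more than 4-fold in each BML-260 library. As both genes were taken up with their values known, this ratio is a description. Npr3 made up 32.4%, 46.3% and 46.0% of the summed TPM of the 3 receptors with vehicle, and 32.7%, 20.6% and 18.7% with BML-260. Vehicle replicate 1 and BML-260 replicate 1 were alike in this share, and the other libraries differed by group. The summed receptor TPM itself averaged 26.6 ± 6.72 in the vehicle group and 21.8 ± 1.63 in the BML-260 group (each SD, n = 3).

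**Figure D2:**
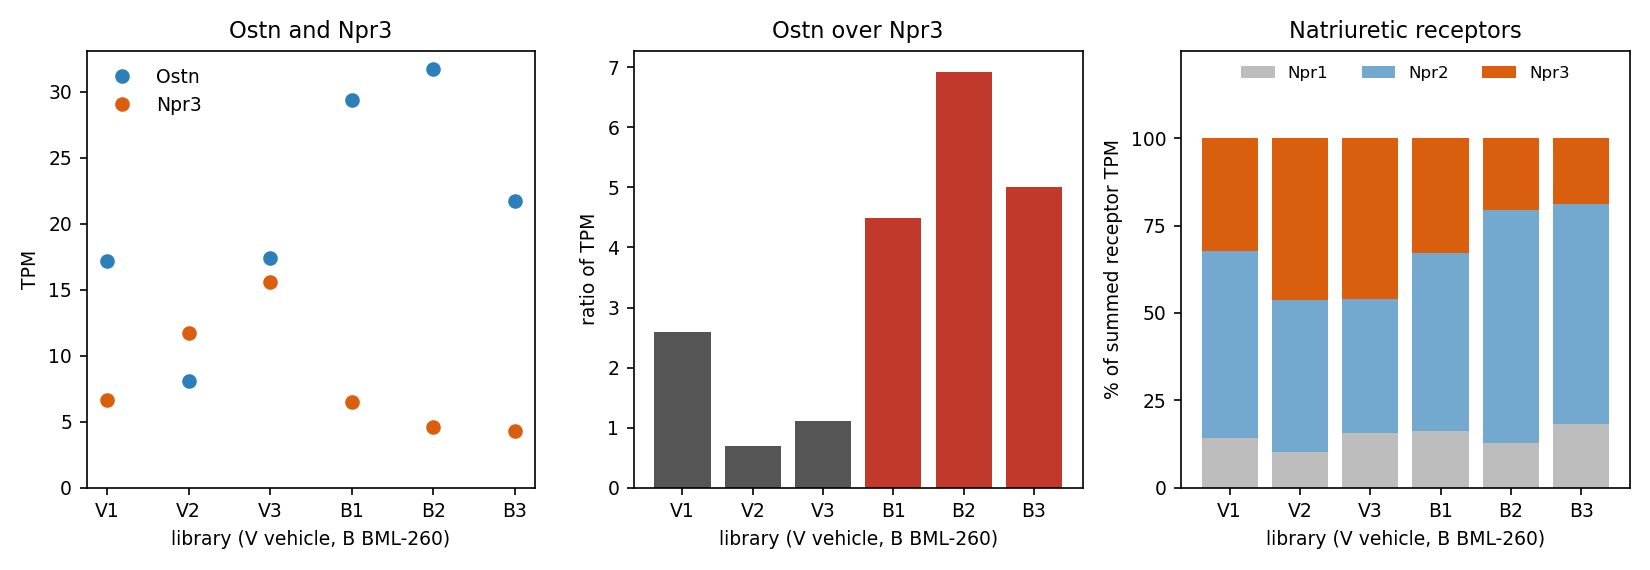
TPM of Ostn and Npr3 (left), the ratio of their TPM (middle) and the share of each receptor in the summed TPM of Npr1, Npr2 and Npr3 (right, in %), for vehicle libraries V1 to V3 and BML-260 libraries B1 to B3. The ratio is 0.690 to 2.59 with vehicle and 4.49 to 6.93 with BML-260, and the Npr3 share is lowest in B2 and B3.

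The peptides that use these receptors were barely detected. Nppa, which encodes ANP, had between 0 and 12 counts in a library, Nppb between 0 and 14, and Nppc between 0 and 23, the last in vehicle replicate 3. None of them is in the TPM tables or passed the filter on low counts, so their differences were not detectable at this depth. Of the list of peptides with their processing and degrading enzymes, 4 of 7 genes were tested, and 0 passed the threshold in either direction. Corin, the protease that cuts pro-ANP, had a log2FC of -0.34 (SE 0.52), Mme (neprilysin, which degrades natriuretic peptides) one of -0.24 (SE 0.41), and Furin, a proprotein convertase, one of 0.17 (SE 0.13). The median of the 4 was -0.083.

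Cyclic GMP is also made by soluble guanylate cyclase, acts on kinases and is broken down by phosphodiesterases. Of these, 7 genes were tested, and 0 passed in either direction, with 4 higher and 3 lower at a median of 0.012. The widest differences were those of the phosphodiesterases Pde9a, with -0.42 (SE 0.30), and Pde2a, with 0.24 (SE 0.22), and of the kinase Prkg2, with 0.22 (SE 0.30).

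Fndc5, whose membrane protein is cleaved to irisin, had normalized counts of 2533, 2042 and 969.6 with vehicle and 2763, 2258 and 2109 with BML-260. Vehicle replicate 3 was far below the other 5 libraries, among which the groups overlapped. The log2FC was 0.36 (SE 0.31) with all libraries and 0.048 without vehicle replicate 3.

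Il15 encodes the cytokine interleukin-15, which is expressed in muscle and supports natural killer and memory T cells. Its normalized counts were 431, 423 and 186 with vehicle and 487, 512 and 353 with BML-260, again with vehicle replicate 3 the lowest. Its log2FC of 0.38 (SE 0.32) was 0.073 without that library. Vegfb, a growth factor that binds the receptor Flt1, showed the same form. It had 1112, 1145 and 465 normalized counts with vehicle and 1450, 1011 and 1221 with BML-260, and its log2FC was 0.43 (SE 0.32) with all libraries and 0.12 without vehicle replicate 3.

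Fndc5, Il15 and Vegfb were thus higher on average with BML-260 largely through 1 vehicle library. In normalized counts that library was the lowest of the 6 for 5 of the 10 genes (these 3, Npr2 and Apln) and the highest for 2 (Metrnl and Bdnf), and for Ostn it lay between the other vehicle libraries. In TPM it was the lowest for Fndc5, Il15, Vegfb and Apln and the highest for Npr1, Npr3, Metrnl and Bdnf, and for Ostn it was the highest of the vehicle libraries.

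Metrnl, a secreted factor that is released by muscle after exercise and by fat, had 123, 156 and 160 normalized counts with vehicle and 129, 83.0 and 121 with BML-260. Only BML-260 replicate 2 lay clearly below the rest, and the groups overlapped. The log2FC was -0.40 (SE 0.25), and it was between -0.52 and -0.23 when each library was left out in turn.

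Bdnf encodes the neurotrophin that signals through Ntrk2. It had 61, 50 and 103 counts with vehicle and 71, 47 and 33 with BML-260, or 58.1, 63.5 and 77.1 normalized counts against 61.4, 47.0 and 40.3. BML-260 replicate 1 lay among the vehicle libraries. The log2FC was -0.42 (SE 0.30), and -0.29 without vehicle replicate 3. In TPM the groups did not overlap, with 0.502, 0.515 and 0.911 against 0.485, 0.412 and 0.331, though the nearest values were 0.485 and 0.502.

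Apln, the precursor of the vasoactive peptide apelin, was the gene with the fewest counts, 32, 55 and 7 with vehicle and 24, 37 and 35 with BML-260. The 7 counts of vehicle replicate 3 have an exact 95% Poisson interval of 2.81 to 14.4, which covers counting error only, and lay below the intervals of all other libraries (15.4 or more at the lower end). The 55 counts of vehicle replicate 2 were the most. The fitted log2FC was -0.054 with an SE of 0.77, so that neither a rise nor a fall of Apln could be resolved, and it ranged from -0.58 without vehicle replicate 3 to 0.92 without vehicle replicate 2.

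**Figure D3:**
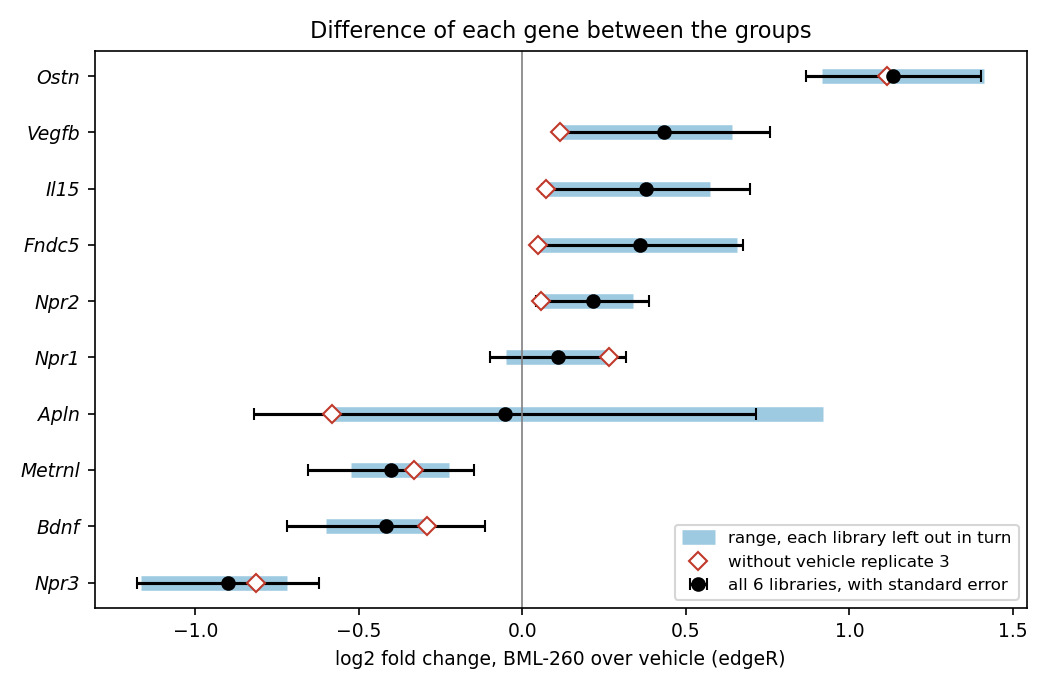
Log2FC (BML-260 over vehicle) of the 10 genes with its SE (black), its range when each library was left out in turn (blue) and its value without vehicle replicate 3 (red diamond). Ostn stays between 0.92 and 1.41 and Npr3 between -1.17 and -0.72, whereas Vegfb, Il15 and Fndc5 move to between 0.048 and 0.12 without vehicle replicate 3.

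By level, in vehicle-treated muscle Vegfb and Fndc5 were the most abundant of the 10 genes, with 27.4 ± 7.67 and 24.7 ± 7.55 TPM (SD, n = 3), and their ranges overlapped. Ostn followed with 14.2 ± 5.33 TPM, then Npr2 with 11.7 ± 1.15, Npr3 with 11.3 ± 4.47 and Il15 with 8.87 ± 2.04 (each SD, n = 3), and each of these overlapped with the next in order. The first gap without overlap came between Il15 and Npr1, which had 3.60 ± 1.46 TPM (SD, n = 3). Metrnl, with 2.35 ± 0.727 TPM (SD, n = 3), lay above Bdnf in all 3 libraries, and the levels of Bdnf (0.643 ± 0.233) and Apln (0.383 ± 0.334) overlapped (SD, n = 3).

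With BML-260 the first 3 places were the same, but Ostn, at 27.6 ± 5.24 TPM (SD, n = 3), overlapped with Fndc5 (29.7 ± 2.20; SD, n = 3) and no longer with Npr2 (13.2 ± 2.59; SD, n = 3). Npr3, at 5.15 ± 1.21 TPM, came after Il15 with 10.7 ± 1.89 TPM, without overlap (both SD, n = 3). In normalized counts the coefficient of variation was smaller with BML-260 than with vehicle for 7 of the 10 genes, and the SD for 6. The share over all tested genes was not computed, so nothing is read from these counts. For Fndc5 the coefficient was 14.4% against 43.3%, where vehicle replicate 3, with 969.6 normalized counts, lay far below the other libraries.

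Receptors of the 6 other myokines, and Apela, which encodes a peptide ligand of the apelin receptor, were taken as a list of 12 genes. Apela had 0 counts in every library, and the other 11 genes were tested. At the threshold 0 passed in either direction, with 6 higher and 5 lower at a median of 0.060. Without vehicle replicate 3 the median was -0.064, and without vehicle replicate 2 Ntrk2, the receptor of Bdnf, passed as lower (log2FC -0.60). The widest differences were those of Il2rg and Il2rb, subunits of the interleukin-15 receptor, with -0.58 (SE 0.42) and -0.54 (SE 1.01), and of Kit, a receptor reported for Metrnl, with 0.50 (SE 0.36). Il2rb had at most 15 counts in a library.

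Among 18 further myokines 15 were tested, and 1 passed the threshold, Mstn, which was higher with BML-260, while 0 passed as lower. Mstn encodes myostatin, an inhibitor of muscle growth. Its normalized counts were 2387, 1398 and 1989 with vehicle and 2529, 3437 and 2929 with BML-260, without overlap between the groups. The log2FC was 0.62 with an SE of 0.21 (edgeR, Benjamini-Hochberg adjusted p = 0.779 over all tested genes), and it was 0.64 without vehicle replicate 3. In TPM the groups overlapped, with 31.2, 17.4 and 36.0 against 30.1, 46.1 and 39.3. Without vehicle replicate 2 or without BML-260 replicate 2 Mstn did not pass the threshold, with values of 0.44 and 0.51, nor did it on log2 TPM with either pseudocount (1 or 0.1).

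In all, 4 of these 15 genes were higher and 11 lower, with a median log2FC of -0.20, and vehicle replicate 3 was the highest library for 8 of them. Without it the median was -0.062. Erfe, which encodes erythroferrone, had the widest difference, -1.35 (SE 0.88), but rested on 3 to 82 counts. Igf1, a growth factor for muscle, had -0.78 (SE 0.37), and without vehicle replicate 3 the values of Erfe and Igf1 were -0.49 and -0.45. The chemokine gene Cx3cl1 had, with all libraries, -0.74 (SE 0.39). Il6, Fgf21 and Gdf15 were not tested, and of these only Il6 had more than 8 counts in any library, 75 in vehicle replicate 3.

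Of 5 genes that are known to act upstream of Fndc5 or Ostn, 2 passed the threshold as lower, Foxo1 and Akt1, and 0 as higher. Foxo1, a transcription factor that is held out of the nucleus by Akt, had normalized counts of 1126, 1724 and 3142 with vehicle and 869, 1277 and 1018 with BML-260. Its log2FC was -0.92 (SE 0.34; edgeR, Benjamini-Hochberg adjusted p = 0.788). Vehicle replicate 3 was the highest, and without it the value was -0.44 and the threshold was missed. Akt1, a kinase of insulin signaling, had 2342, 1911 and 3171 normalized counts with vehicle and 1730, 1512 and 1941 with BML-260, at a log2FC of -0.52 (SE 0.20; edgeR, Benjamini-Hochberg adjusted p = 0.788), which without the same library was -0.31 and missed the threshold too. Foxo1 also missed it without BML-260 replicate 1 (-0.80) or 3 (-0.90), and Akt1 without BML-260 replicate 1 (-0.52) or 2 (-0.43). On log2 TPM neither gene passed with either pseudocount, and with limma voom Foxo1 alone did. Ppargc1a, the coactivator PGC-1α that drives Fndc5, had a log2FC of 0.018 (SE 0.19), and its partner Esrra one of 0.35 (SE 0.26). Without vehicle replicate 3 these were -0.13 and 0.098.

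**Figure D4:**
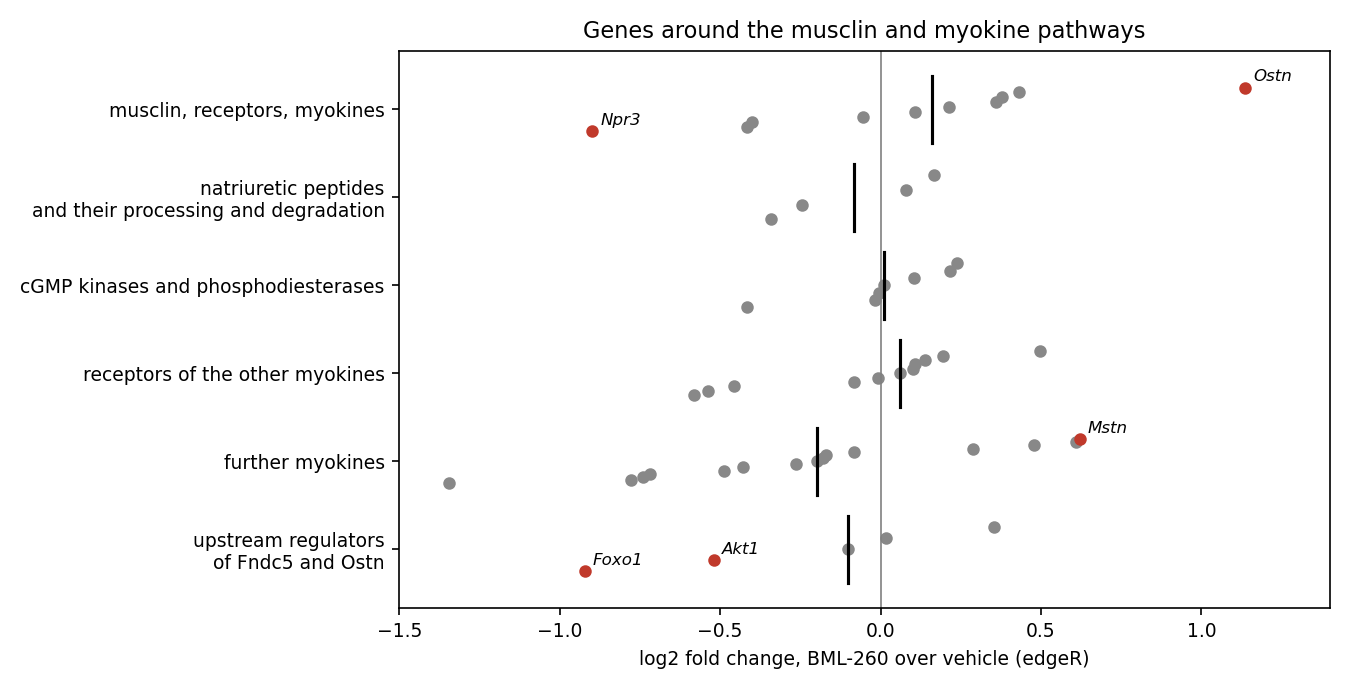
Log2FC (BML-260 over vehicle) of each tested gene in the 10 genes described and in 5 lists of related genes; red points passed the fold and p threshold, and black lines are medians. The medians of the 5 related lists lie between -0.20 and 0.060, and Ostn at 1.13 is the highest value plotted.

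Over the 6 libraries, the genes whose log2 CPM followed Ostn most closely, among 10691 named genes with at least 100 counts on average, were Gpn3 (r = 0.999), Sec23b (r = 0.986), Tmem267 (r = 0.979), Mettl17 (r = 0.970) and Ppm1a (r = 0.969). With 6 points that share the contrast between groups, and this many genes ranked, such values of Pearson's r are a description only. The differences of these genes were smaller than that of Ostn, with log2FC between 0.23 (Gpn3) and 0.70 (Tmem267). Among the other 9 genes described here, r with Ostn was 0.51 for Fndc5, 0.48 for Il15 and 0.47 for Npr2, and it was -0.79 for Npr3 and -0.76 for Metrnl. Fndc5 stood higher than 80.5% of all tested genes in its r with Ostn, and Npr3 higher than 4.39%.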

How the data were processed

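TA muscle RNA of 3 vehicle and 3 BML-260 mice was sequenced by the authors, with groups and replicates taken from the sample titles. Per the labels, reads were trimmed with Trimmomatic 0.38, mapped to mm10 with HISAT2 2.1.0 and Bowtie2 2.3.4.1, and assembled with StringTie 2.1.3b. The authors deposited raw read counts for 45777 genes and TPM for 16800 genes. Rules for strand and for shared reads in the counting are not given in the sources used here, so reads of overlapping genes may be split between them.

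Counts were fitted in R 4.3.3 with edgeR 4.0.16 (filterByExpr, 16188 genes, 99.95% of counts; TMM; quasi-likelihood test; Benjamini-Hochberg adjustment over all tested genes). As SE of each fitted log2FC, its size over the square root of F was taken. Normalized counts use the size factors of DESeq2 1.42.0. Total counts per library were 39522890 to 56998875, and the counting precision of a gene depends on its own counts. Each p-value sets a difference between groups against the spread between libraries, which edgeR estimates with information shared across genes.

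The genes, the lists and the rule for naming were chosen with earlier results of these data known. In each list the genes past the threshold and the 3 with the largest absolute log2 fold change are named, as are the 5 genes most correlated with Ostn. Others named with values (Ppargc1a, Ntrk2, Il6, Fgf21, Gdf15) were added after their values were seen. Marker lists not described in the text, fibroblast and smooth muscle, had summed TPM of 118 to 174 and 290 to 329 with vehicle and of 108 to 138 and 275 to 350 with BML-260. Alternatives were RLE and upper quartile scaling, other filters, a replicate block, each library left out, DESeq2, limma 3.58.1 voom with quality weights, the robust test, and limma on log2 TPM with pseudocounts of 1 and 0.1. Figures were drawn with matplotlib 3.10.9.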

Additional observations from a re-analysis of the deposited data

How the results depend on the processing

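Over 16 alternatives to the fit, the log2 fold change of Ostn stayed positive, between 0.92 and 1.41. With Benjamini-Hochberg adjustment its adjusted p was 0.607 in the main edgeR fit. It passed 0.05 with DESeq2's Wald test alone (log2 fold change 1.14, adjusted p = 0.0253, within a range of 0.0253 to 0.984). Since Ostn was chosen for its rise in these libraries, these values are a description. The count of the 10 genes at the fold and p threshold was 2 in all alternatives but 1, where BML-260 replicate 3 was left out (range 1 to 2), and the number of the other 9 that were higher lay within 1.5 times of 5. Of 143 alternative values of those 9 genes, 135 kept their direction. The exceptions were Npr1, with -0.021 on log2 TPM with a pseudocount of 1, -0.018 with 0.1 and -0.050 to 0.26 with a library left out, and Apln, with 0.28 with the replicate block, 0.0093 and 0.18 on log2 TPM with pseudocounts of 1 and 0.1, and -0.58 to 0.92 with a library left out.

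Genes with an adjusted p under 0.05 over the whole table numbered 0 with edgeR, 82 with DESeq2, 1 with no filter, with at least 10 counts in every library, with the robust test and with voom, and 0 to 9 with a library left out. Genes at the fold and p threshold numbered 931, and 1416 with no filter, 446 on log2 TPM with a pseudocount of 1, and 503 (without BML-260 replicate 2) to 2223 (without vehicle replicate 1) with a library left out. The cause was not tested.

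The replicate numbers do not pair the mice by any label. Deviations of same-numbered libraries had correlations of 0.162, 0.0541 and 0.110, each the highest for its vehicle library (a hint from the data, not from the design), and with the replicate block 2 of the 10 genes still passed the threshold (Ostn 1.16, Npr3 -0.90). In the lists, the block let 1 receptor of the other myokines pass (Ntrk2, -0.45). The further myokines at the threshold numbered 1 with all libraries, 3 with the block or voom and 0 on log2 TPM. They numbered 2 with no filter, with DESeq2, and without vehicle replicate 1, vehicle replicate 2 or BML-260 replicate 1. Further myokines other than Mstn thus passed in some fits. With 3 mice a group, the standard errors of the 10 genes were 0.17 to 0.77. A difference above its standard error is not thereby resolved, and 0 of the 10 had an adjusted p under 0.05 with edgeR. The largest differences, of Ostn and Npr3, had Benjamini-Hochberg adjusted p of 0.607 and 0.699 with edgeR.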
